A study of Mus musculus with 36 samples.

Results

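The comparison set lipoxin A4 (LXA4) against vehicle in the kidney cortex of nondiabetic mice. Its members were chosen by label: the 6 libraries of nondiabetic mice given LXA4 and the 6 of nondiabetic mice given vehicle, 12 of the 36 libraries in the series, with every gene of the deposited count table. All mice in the series, controls included, were male ApoE-/- animals on a C57BL/6 background, so no group has intact apolipoprotein E. Per the labels they were 6 weeks old when the study began. The nondiabetic mice differ from the diabetic ones in that the latter received streptozotocin, which destroys pancreatic beta cells. Vehicle was 0.1% ethanol, LXA4 was given at 5 µg/kg, and both went into the peritoneum 2 times weekly. Another nondiabetic group received benzo-LXA4, a synthetic analog, at 1.7 µg/kg. The protocol text names an intervention arm dosed from week 10 to week 16 of a follow-up of 16 weeks. The hour at which kidneys were taken is not given in the sources used here. Nor do the labels say that each replicate is a mouse of its own. The p-values thus measure sample-to-sample spread alone, and that spread may be technical.

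LXA4 is a short-lived lipid made from arachidonic acid by lipoxygenases as inflammation resolves, and it signals through the formyl peptide receptor FPR2 on leukocytes and tissue cells. The kidney also runs a strong circadian clock. In it ARNTL (BMAL1) pairs with CLOCK or NPAS2 on E-box sequences and switches on the PER, CRY and REV-ERB (NR1D) repressors and the PAR bZIP factors DBP, TEF and HLF. The repressors then shut the activators off, so that Arntl and Npas2 peak at about the opposite time of day from Dbp. Levels of these genes therefore move with the hour of sampling, with feeding and with signals that reset the clock.

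Total counts ran from 10086698 to 32657959 in the vehicle libraries and from 27170619 to 43305005 with LXA4. Vehicle replicate 3 stood apart. It was the shallowest of the 12, and 17.7% of its counts came from ribosomal and small structural RNA genes, against at most 6.81% in the other 11. Mitochondrial genes made up 5.25% of its counts, and at least 9.71% of those of every other library. Values without it are given where they bear on a result. Levels are CPM, counts scaled to a common library size with TMM factors, and they are compared between libraries for the same gene only. Apoe, the gene disrupted in all these mice, was low in both groups, from 1.70 to 2.86 CPM with vehicle and from 1.82 to 2.82 CPM with LXA4. As a check of the tissue label, Lrp2, the endocytic receptor megalin of proximal tubule, was at 4327 to 6274 CPM with vehicle and 5835 to 6793 CPM with LXA4. Markers of neighbouring kidney regions varied between libraries, and their values stand with the results.

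Across the transcriptome, no gene passed. Of 15726 genes tested with the quasi-likelihood test of edgeR, 0 (0%) had an adjusted p under 0.05, and the lowest adjusted p was 0.314. At an unadjusted p under 0.05 there were 967 genes (6.15%), of which 278 were higher with LXA4 (1.77%) and 689 lower (4.38%). DESeq2 called 3 genes (0.0192%) and limma voom with quality weights also 3 (0.0191%). The former were Megf11, Gm26704 and Kdm4b, and the latter Gm15492, Syne3 and Gm26704, all lower with LXA4. Without vehicle replicate 3 the count stayed at 0, with 987 genes (6.28%) at an unadjusted p under 0.05. Levels of the 2 groups did not overlap for 70 genes (0.445%), 30 higher (0.191%) and 40 lower (0.254%) with LXA4. Every value that follows is for a gene that missed the adjusted threshold in this edgeR fit.

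The genes on the lower side were weighted toward those with few reads. Among 1704 genes averaging under 1 CPM, 117 (6.87%) were lower and 27 (1.59%) higher at an unadjusted p under 0.05. Among 9507 genes of 10 CPM or more these shares were 3.10% and 2.04%. The median log2 difference over all genes was -0.02.

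Clock genes lay apart in most LXA4 libraries. The activators Arntl and Npas2 were above every vehicle library in 5 of 6, and the E-box target Dbp was below every vehicle library in 4 of 6. Lists were made for both arms of the loop. The ARNTL arm, genes that peak with Arntl or are held down by REV-ERB, had 7 measured members, of which 4 were higher at an unadjusted p under 0.05 and 0 lower, against 1.77% and 4.38% of all genes. The E-box arm had 12 measured members, 11 of them lower, 5 at an unadjusted p under 0.05. The median log2 difference was 0.30 for the first list and -0.34 for the second. Without vehicle replicate 3 these medians were 0.19 and -0.29. The ARNTL arm then had 3 members higher and 1 lower (Rora) at an unadjusted p under 0.05, Clock no longer among them, and the E-box arm had 4 lower. These lists were drawn up with earlier results from the same libraries known and are not independent support for a direction.

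The E-box arm takes its name from a promoter motif. Of the 12 E-box arm genes, 10 matched a RefSeq promoter window (GRCm38.p6, 250 bases before to 50 after a start site), and 4 of these held the canonical E-box CACGTG, a palindrome that reads alike on both strands. Of 32851 such windows, each counted singly, 7.15% held it. The 10 genes had 12 windows, and a gene counts if any of its windows held the motif. In the ARNTL arm 6 of 7 genes matched, and 1 of them (Cry1) held an E-box. The ROR element, to which RORA and the REV-ERB repressors bind, was searched on both strands as AGGTCA or GGGTCA directly preceded by AANT, and 0.435% of windows held it. Of the 6 ARNTL arm genes only Arntl did, in the second of its start sites. The D-box, the motif of DBP, TEF and HLF, was searched as TTATGTAA or TTACGTAA and was in no window of either arm and in 1.06% of all windows. The 4 E-box arm genes with an E-box were Ciart, Per1, Tef and Bhlhe41, the last with a log2 difference of -0.02. Cry2, Nr1d1, Nr1d2, Dbp, Hlf and Usp2 held none in their windows. Below are the 250 bases upstream of Ciart, Per1 and Tef with the E-box in capitals. Also shown are 30 bases around the ROR element of Arntl, with the element in capitals. A match describes letters and says nothing of binding in these kidneys. Ciart lies on the minus strand at chr3:95882229-95882478, Per1 on the plus strand at chr11:69098699-69098948, Tef on the plus strand at chr15:81802423-81802672, and the Arntl piece on the plus strand at chr7:113207528-113207557.
Ciart: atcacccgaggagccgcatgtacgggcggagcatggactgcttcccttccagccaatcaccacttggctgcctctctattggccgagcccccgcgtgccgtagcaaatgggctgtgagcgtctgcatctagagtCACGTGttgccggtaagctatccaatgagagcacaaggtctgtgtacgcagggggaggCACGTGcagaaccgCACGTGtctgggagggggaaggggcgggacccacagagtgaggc
Per1: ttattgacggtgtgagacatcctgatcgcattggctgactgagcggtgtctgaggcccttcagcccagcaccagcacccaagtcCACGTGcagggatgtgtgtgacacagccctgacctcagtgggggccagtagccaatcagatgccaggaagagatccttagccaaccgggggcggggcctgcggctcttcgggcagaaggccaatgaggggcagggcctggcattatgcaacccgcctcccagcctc
Tef: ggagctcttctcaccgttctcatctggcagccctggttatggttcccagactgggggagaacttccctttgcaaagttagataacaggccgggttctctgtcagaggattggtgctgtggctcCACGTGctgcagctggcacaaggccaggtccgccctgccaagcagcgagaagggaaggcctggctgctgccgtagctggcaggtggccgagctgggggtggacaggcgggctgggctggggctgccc
Arntl: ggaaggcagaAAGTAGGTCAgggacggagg
Ciart carried 3 E-boxes, starting 116, 58 and 44 bases before its start site, while Per1 and Tef carried 1 each in the stretch shown.

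Npas2, a partner of ARNTL (chromosome 1, 39193731 to 39363236, GRCm38), had the lowest p of the clock activators. It was at 3.78, 11.6 and 20.2 CPM (lowest, median and highest library) with vehicle and at 14.3, 43.9 and 68.4 CPM with LXA4. LXA4 replicates 2, 3, 4 and 6 lay at 43.4 CPM or more, above the whole vehicle group, replicate 5 at 23.7 CPM lay just above it, and replicate 1 lay inside the vehicle range. The log2 difference was 1.80 (SE 0.51, 95% interval 0.76 to 2.83, unadjusted p = 0.0012, adjusted p = 0.648 in edgeR), or 1.64 without vehicle replicate 3, and all 6 LXA4 libraries were above the vehicle mean.

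Arntl itself (chromosome 7, 113207465 to 113314126) was at 4.92, 18.8 and 24.2 CPM with vehicle and at 16.5, 39.6 and 56.9 CPM with LXA4. Vehicle replicate 3 was the lowest of all, and LXA4 replicate 1 again fell among the vehicle libraries. The log2 difference was 1.13 (SE 0.45, unadjusted p = 0.0163, adjusted p = 0.807 in edgeR) and 0.95 without vehicle replicate 3.

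Nfil3, a bZIP repressor of D-box genes, ran from 3.00 to 6.18 CPM with vehicle and from 5.25 to 17.3 CPM with LXA4. Its log2 difference was 1.04 (SE 0.33, unadjusted p = 0.0032, adjusted p = 0.768 in edgeR). Clock was at 55.5 to 101 CPM and 94.2 to 121 CPM, a log2 difference of 0.30, and 0.19 (unadjusted p = 0.176 in edgeR) without vehicle replicate 3. Not higher were Cry1, which also answers to E-boxes, at -0.35 log2, and the nuclear receptor Rora, an activator of Arntl, at -0.22.

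**Figure D1:**
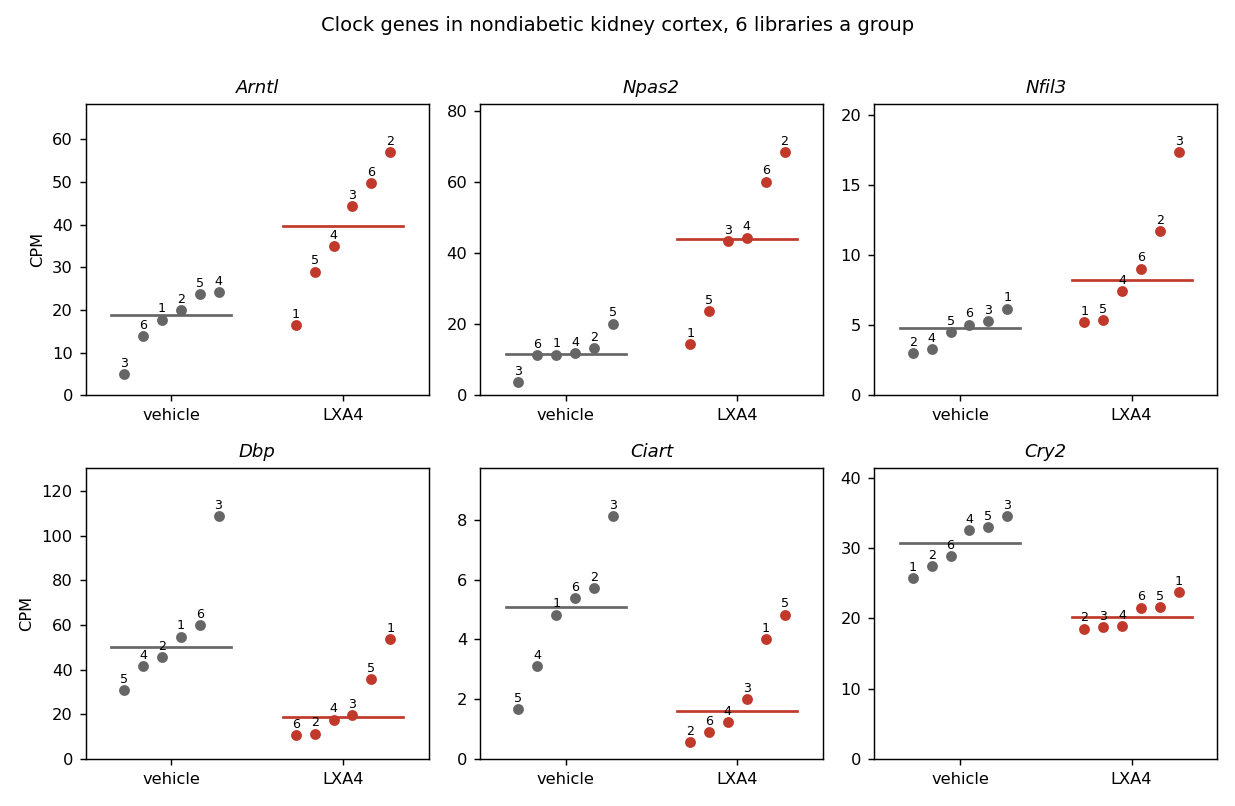
CPM (linear axis from 0) of 6 clock genes in each library of nondiabetic mice given vehicle (grey) or LXA4 (red). Numbers are replicates and lines are group medians. LXA4 replicates 2, 3, 4 and 6 are high for Arntl and Npas2 and low for Dbp, replicates 1 and 5 lie nearer to vehicle, and only Cry2 shows no overlap.

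Dbp, the PAR bZIP factor with the steepest daily rhythm in many tissues (chromosome 7, 45705088 to 45710203), was at 30.9, 50.2 and 109 CPM with vehicle and at 10.6, 18.7 and 53.8 CPM with LXA4. The libraries with the least Dbp were LXA4 replicates 6, 2, 4 and 3, the same 4 that had the most Npas2. Vehicle replicate 3 had the most Dbp. The log2 difference was -1.19 (SE 0.39, 95% interval -1.99 to -0.39, unadjusted p = 0.0048, adjusted p = 0.804 in edgeR), and -0.91 without vehicle replicate 3.

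Cry2, a repressor of ARNTL (chromosome 2, 92403646 to 92434043), was the only one of the 19 arm genes whose groups did not overlap. It was at 25.8, 30.7 and 34.6 CPM with vehicle and 18.6, 20.2 and 23.7 CPM with LXA4, so that the highest LXA4 library lay below the lowest vehicle library. Across all genes, 0.254% were lower without overlap. The log2 difference was -0.56 (SE 0.15, unadjusted p = 0.00065, adjusted p = 0.573 in edgeR), and -0.52 without vehicle replicate 3.

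Among the remaining targets, Ciart, a repressor of the ARNTL complex, was at 1.67 to 8.12 CPM and 0.57 to 4.82 CPM, a log2 difference of -1.06 (unadjusted p = 0.0361, adjusted p = 0.812 in edgeR). Without vehicle replicate 3 its log2 difference was -0.88, with an unadjusted p of 0.0896 in edgeR. Nr1d2, which encodes REV-ERB beta, differed by -0.33 log2 (unadjusted p = 0.0128 in edgeR) and Tef by -0.35 (unadjusted p = 0.0154 in edgeR). For Nr1d2, LXA4 replicates 1 and 5 lay within the vehicle range, and for Tef only replicate 5 did. The others did not reach an unadjusted p of 0.05: the period genes Per1 at -0.36 and Per2 at -0.42, Nr1d1 at -0.19, Hlf at -0.13, the deubiquitinase Usp2 at -0.11, the repressors Bhlhe41 at -0.02 and Bhlhe40 at 0.15. Per3 was not analysed here.

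**Figure D2:**
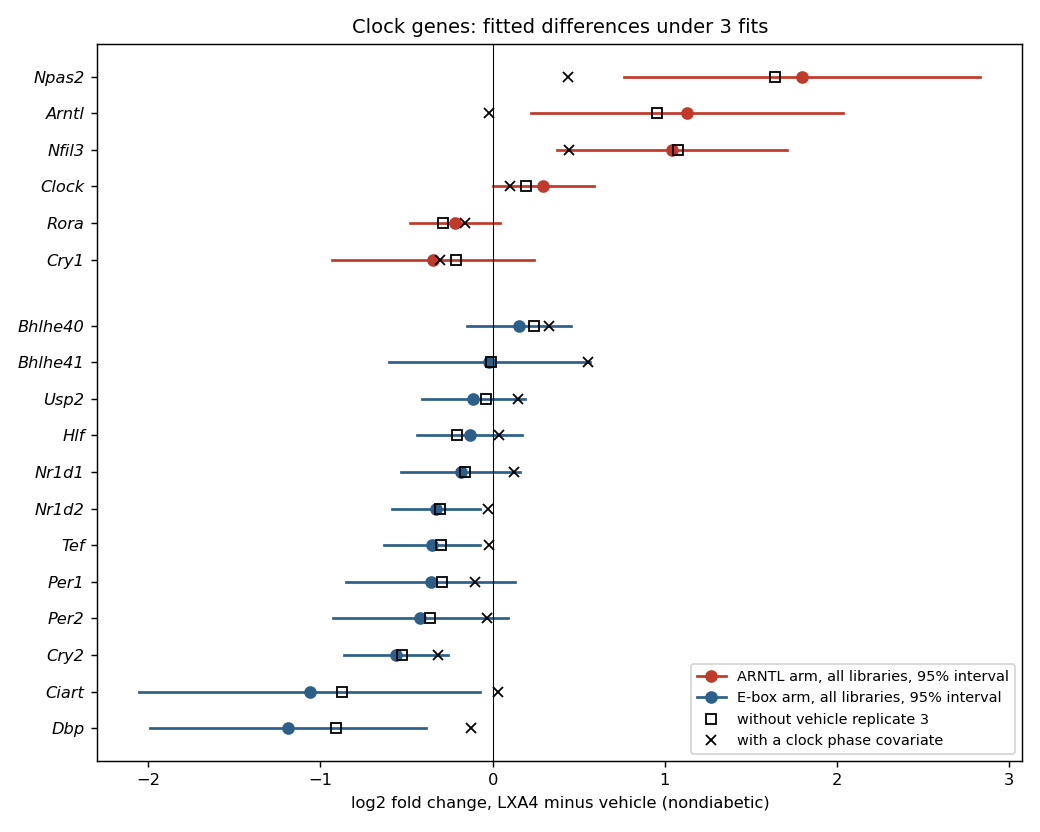
Log2 differences (LXA4 minus vehicle, linear axis) of 18 genes of both clock arms with 95% intervals (filled circles), without vehicle replicate 3 (open squares) and with a clock phase covariate (crosses). The intervals of Npas2, Arntl, Nfil3 and Clock lie above 0 and those of Dbp, Ciart, Cry2, Tef and Nr1d2 below it. Most crosses lie nearer to 0, under a covariate that is built from the arm genes themselves.

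To place each library, the log2 CPM of Dbp was subtracted from that of Arntl. The ratio ran from -4.46 to -0.38 with vehicle (mean -1.76 ± 1.46 SD, n = 6) and from -1.71 to 2.33 with LXA4 (0.79 ± 1.55 SD, n = 6). It was -1.71 in LXA4 replicate 1 and -0.30 in replicate 5, against 0.99 to 2.33 in the other 4. The difference of the means was 2.54, and it was 2.00 without vehicle replicate 3. In the 12 libraries Arntl and Dbp had a Pearson correlation of -0.94, a description of libraries that also differ in depth and treatment. Within the 6 LXA4 libraries it was -0.94, and within the 6 vehicle libraries -0.95, or -0.87 in the 5 without vehicle replicate 3.

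Other groups varied in this ratio too, most of them less. It ran from -2.21 to -0.65 with benzo-LXA4 in nondiabetic mice (SD 0.63) and from -1.71 to 0.68 with vehicle in diabetic mice (SD 0.90). In diabetic mice it ran from -1.65 to 0.96 with benzo-LXA4 (SD 1.02) and from -3.96 to 3.66 with LXA4 (SD 2.79). The top value of the last range came from a single library, diabetic LXA4 replicate 5. The other libraries of that group ran from -3.96 to -1.09. The labels give neither the hour of collection nor the order of sampling. A difference in clock phase between groups and a response of clock genes to LXA4 cannot be told apart.

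**Figure D3:**
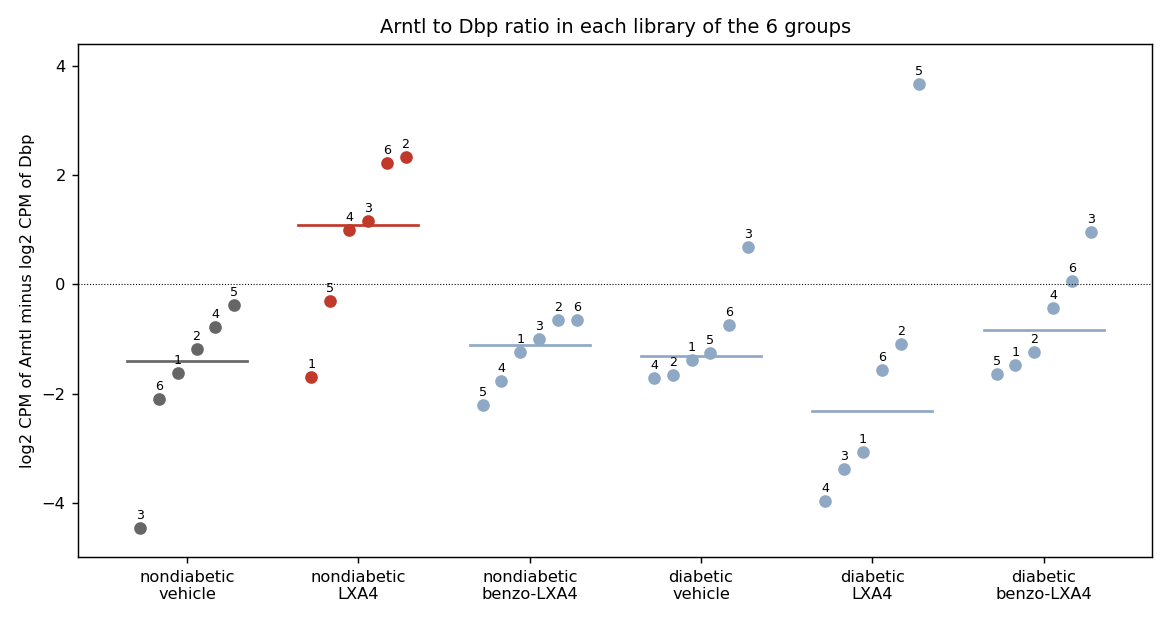
Log2 CPM of Arntl minus log2 CPM of Dbp in each library of the 6 groups (6 libraries a group, numbers are replicates, lines are medians). Nondiabetic LXA4 has the highest median at 1.08, against -1.41 in nondiabetic vehicle, and diabetic LXA4 spans -3.96 to 3.66.

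The clock difference was then entered into the fit. The mean log2 level of the E-box arm minus that of the ARNTL arm in each library served as a covariate in a refit of all 36 libraries. The count at adjusted p under 0.05 was again 0 in edgeR, and genes higher at an unadjusted p under 0.05 went from 278 to 101 (0.642%), those lower from 689 to 623 (3.96%). The covariate is built from the arm genes, so their own values under it are no measurement of LXA4. It also differed between the groups, with a mean of 0.88 with vehicle and -0.03 with LXA4. For any gene, a change under it therefore cannot be assigned to clock phase or to LXA4. Of other genes named here, Rhobtb1 went from 0.85 to 0.29, the ecto-5'-nucleotidase Nt5e from 0.70 to 0.41 and the ER chaperone Hsp90b1 from 0.40 to 0.18. The values of Kdm4b (-0.32 and -0.26), Adra2b (0.32 and 0.39) and 0610043K17Rik (0.43 and 0.44) moved less.

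Genes that track the ratio elsewhere were looked at in the same way. Within the 4 groups that this comparison does not use, 11074 genes of at least 5 CPM, clock outputs among them but neither arm nor the modifiers of the clock, were ranked. The measure was their correlation with the Arntl to Dbp ratio over 23 libraries, both centred within each group, and the 50 at each end were taken. These lists were chosen after the data were seen and carry no test. Of the 50 that followed Dbp, 42 were lower with LXA4 in nondiabetic cortex, 7 at an unadjusted p under 0.05. Of all 15726 genes, 8654 were lower, 4.38% at that threshold. Shares of all genes include those under 5 CPM, which the ranking left out. The median log2 difference was -0.0065 over the 11074 ranked genes, -0.11 in the Dbp-following list and 0.02 in the Arntl-following list. Of the 50 that followed Arntl, 27 were higher, 6 at an unadjusted p under 0.05, beside 7072 of all genes higher and 1.77% at that threshold. When diabetic LXA4 replicate 5 was left out of the ranking, the counts were 40 lower of 50 and 41 higher of 50, and only 19 and 15 genes were shared with the first lists.

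Rhobtb1 was in the Arntl-following list and among the genes with the lowest p. It was at 76.3, 129 and 172 CPM with vehicle and 127, 246 and 303 CPM with LXA4. LXA4 replicates 2, 3, 4 and 6 lay above all vehicle libraries and replicates 1 and 5 within them, the former being the 4 libraries with the most Npas2. Its log2 difference was 0.85 (SE 0.24, unadjusted p = 0.0014, adjusted p = 0.648 in edgeR). Ypel2 (0.72) and the phosphatase Ppm1h (0.35) were higher, and Cpeb3, a regulator of translation that led the Dbp-following list, was lower by -0.33. These 3 were named after their values were seen. Gpr39, which led the Arntl-following list, was lower (-0.24). In that list 23 of 50 genes were lower. A930033H14Rik lies on the opposite strand inside Rhobtb1 (chromosome 10, 69209762 to 69213098). It was at 2.65 to 3.62 CPM with vehicle and 1.09 to 2.55 CPM with LXA4, without overlap, a log2 difference of -0.87. The strand setting of the counting is not given in the sources used here, so reads of the pair may not be fully separated.

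Clock output genes did not lean one way. Of 29 measured, 15 were higher and 14 lower, 1 and 3 of them at an unadjusted p under 0.05 (1.77% and 4.38% of all genes), with a median log2 difference of 0.01. Without vehicle replicate 3 these calls were 1 and 1, Klf13 and Aqp2 no longer among them. Those 4 were the tetraspanin Tspan4 (-0.47, unadjusted p = 0.0080 in edgeR), the transcription factor Klf13 (-0.31), the water channel Aqp2 (-0.70), which were lower, and the cell cycle inhibitor Cdkn1a (0.60), which was higher. The 29 log2 differences lay between -0.70 and 0.60.

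Heat shock and cold-inducible genes, which follow the daily body temperature cycle, had a median log2 difference of 0.27 over 19 members, 15 of them higher. The median was 0.15 without vehicle replicate 4 and 0.10 with the clock covariate. The chaperone Dnajb1 was at 18.9 to 26.0 CPM with vehicle and 23.8 to 37.0 CPM with LXA4, a log2 difference of 0.54 (unadjusted p = 0.0100 in edgeR). Chordc1, an HSP90 cochaperone, differed by 0.30. Cirbp, which is induced by cold, went the other way at -0.52, or -0.38 without vehicle replicate 3.

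Chaperones of the endoplasmic reticulum (ER) leaned to higher values. Of 28 genes of the unfolded protein response, 24 were higher with LXA4, 6 at an unadjusted p under 0.05 (1.77% of all genes were), and 0 lower at that threshold. The median was 0.21 log2, and 0.23 without vehicle replicate 3. Hsp90b1, the ER form of HSP90, was at 178, 266 and 380 CPM with vehicle and 260, 368 and 413 CPM with LXA4, a log2 difference of 0.40 (SE 0.15, unadjusted p = 0.0107, adjusted p = 0.807 in edgeR). The groups overlapped, with vehicle replicate 4 the lowest. The lectin chaperones Calr and Canx differed by 0.36 and 0.22, and the cochaperone Dnajc3 by 0.19. With the clock covariate the median of the list was 0.08 and 0 members kept an unadjusted p under 0.05.

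**Figure D4:**
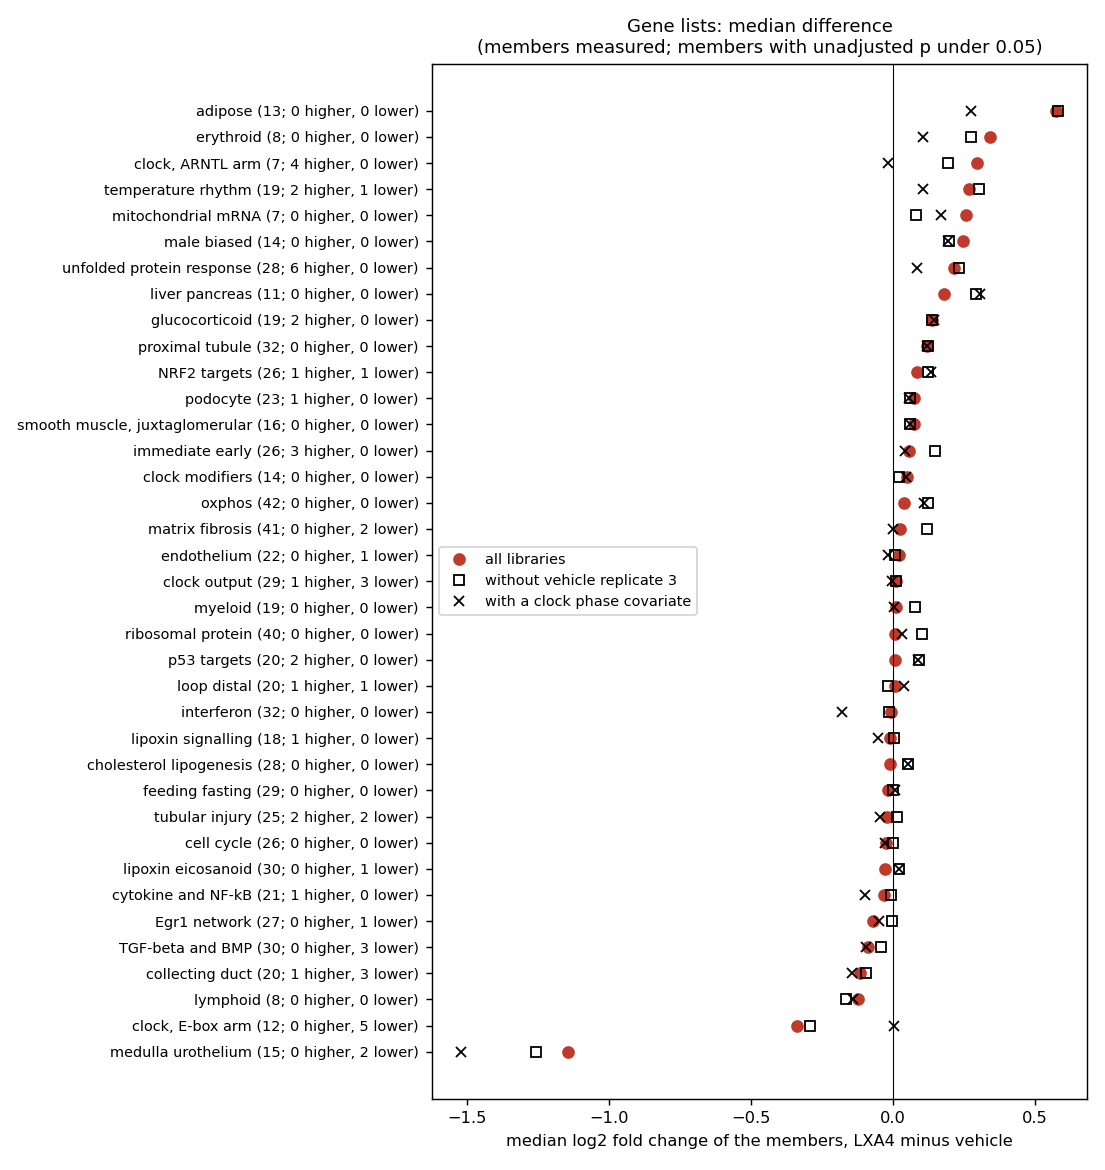
Median log2 difference (LXA4 minus vehicle, linear axis) of the measured members of 37 gene lists, with all libraries (red circles), without vehicle replicate 3 (open squares) and with the clock covariate (crosses). Labels give members measured and members at an unadjusted p under 0.05 in each direction. Most lists lie near 0, and the list of urothelium and inner medulla is lowest at -1.15. Both clock arms move to 0 with the covariate, which is built from these arms and so measures nothing about them.

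The gene with the lowest p was Gm15492, an antisense RNA of few reads (chromosome 6, 113308666 to 113326747). It was at 1.74, 1.85 and 2.22 CPM with vehicle and 1.01, 1.19 and 1.41 CPM with LXA4. All LXA4 libraries lay below all vehicle libraries. The log2 difference was -0.65 (SE 0.14, unadjusted p = 4.2e-05, adjusted p = 0.314 in edgeR, and 0.0466 in voom).

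Kdm4b, a histone H3 lysine demethylase (chromosome 17, 56326062 to 56402870), was at 40.8, 42.4 and 52.5 CPM with vehicle and 33.8, 35.6 and 38.7 CPM with LXA4. The groups did not overlap, and vehicle replicates 3 and 4 were the highest. The log2 difference was -0.32 (SE 0.07, adjusted p = 0.314 in edgeR and 0.0409 in DESeq2), and -0.27 without vehicle replicate 3. Syne3, a nesprin of the nuclear envelope (chromosome 12, 104929933 to 105009809), was at 25.1, 27.8 and 42.0 CPM with vehicle and 17.4, 19.6 and 23.6 CPM with LXA4, again without overlap. Its log2 difference was -0.57 (SE 0.13, adjusted p = 0.573 in edgeR and 0.0462 in voom).

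Several other leading lower genes had few reads. Gm26704, annotated as a noncoding RNA from a bidirectional promoter, was at 1.14 to 4.37 CPM and 0.72 to 1.16 CPM (log2 difference -1.25, adjusted p = 0.314 in edgeR). Gm9754 (-1.01) and Dnaic1, a dynein chain of motile cilia (-0.91), did not overlap between groups. Nuggc, also of few reads, differed by -1.15. Genes with more reads were Wdr59, part of the amino acid sensing GATOR complex (-0.23), the centriolar protein Cntrl (-0.25) and Ccdc62 (-0.47). Their vehicle means were 29.9, 25.8 and 12.7 CPM in turn. Megf11 (-3.49) rested on vehicle replicate 2, which had 16.3 CPM where no other of the 12 libraries passed 0.79 CPM. Without that library its log2 difference was -0.59 (unadjusted p = 0.363 in edgeR).

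On the higher side the lowest p belonged to 0610043K17Rik, a long noncoding RNA (chromosome 4, 101353783 to 101399181). It was at 36.6, 47.8 and 49.2 CPM with vehicle and 57.0, 61.5 and 65.2 CPM with LXA4, without overlap (log2 difference 0.43, SE 0.11, unadjusted p = 0.00025, adjusted p = 0.573 in edgeR). The alpha-2B adrenergic receptor gene Adra2b, which is expressed in proximal tubule, also did not overlap, at 101 to 124 CPM and 125 to 173 CPM (0.32, adjusted p = 0.662 in edgeR). Further genes with a low p were Nt5e (0.70), Stra6l (0.64), a relative of the retinol receptor, the ubiquitin-like modifier Sumo3 (0.28), the nucleolar factors Rbm28 (0.20) and Ppan (0.30), Ldoc1l (0.59), Gm43457 (0.54) and Gm26652 (0.67). In these the groups overlapped.

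**Figure D5:**
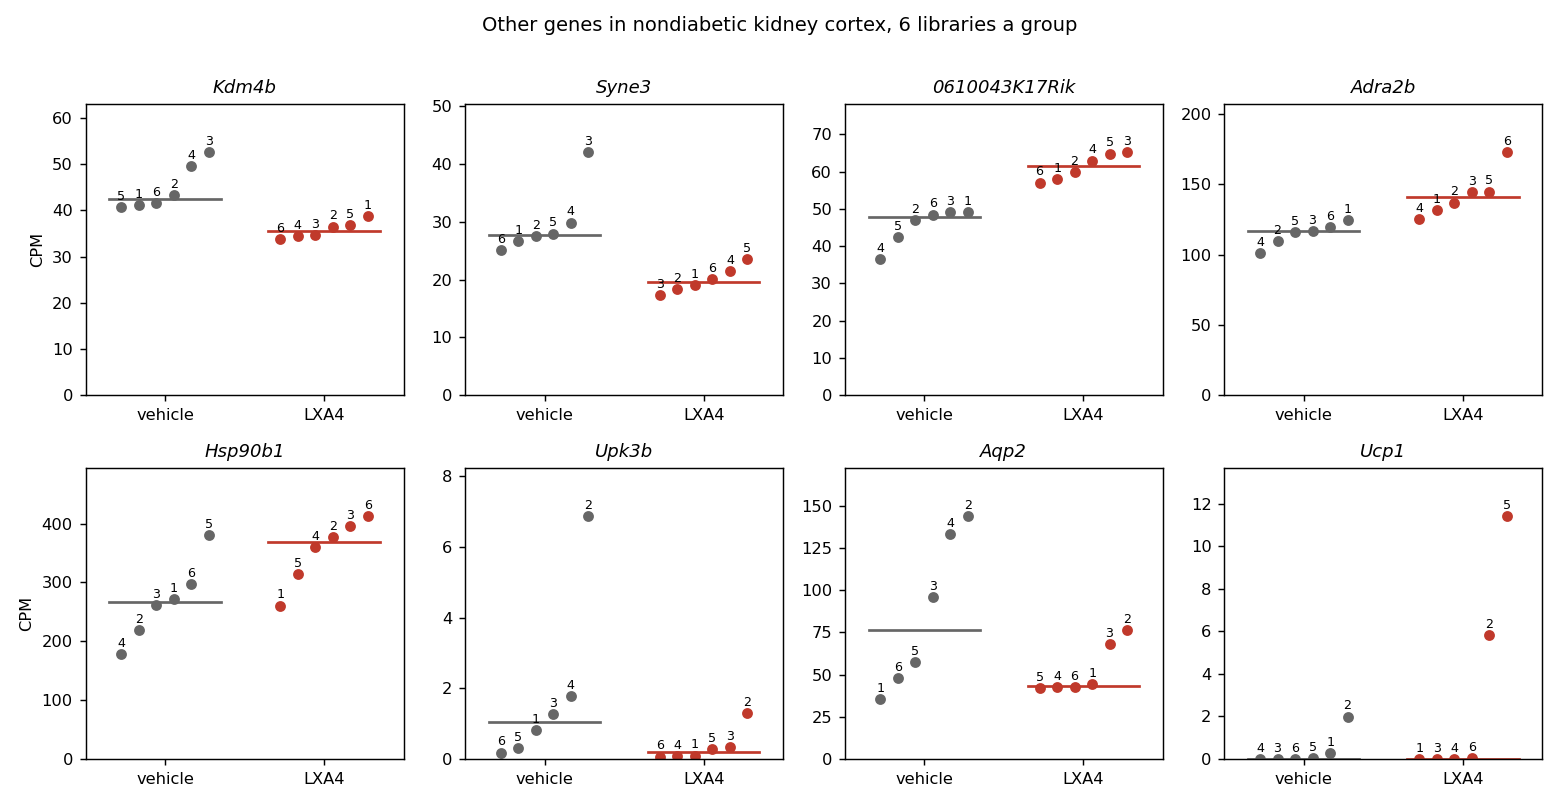
CPM (linear axis from 0) of 8 further genes in each library of nondiabetic mice given vehicle (grey) or LXA4 (red), numbered by replicate, with group medians as lines. Kdm4b, Syne3, 0610043K17Rik and Adra2b do not overlap between groups, Upk3b and Aqp2 are high in vehicle replicate 2, and Ucp1 is high in LXA4 replicates 2 and 5.

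Genes of the lipoxin pathway showed little. Lipoxin and eicosanoid synthesis and reception had 30 measured genes. At an unadjusted p under 0.05, 1 was lower and 0 higher (4.38% and 1.77% of all genes). The lower calls were 2 without vehicle replicate 3 and 4 with the clock covariate. The median log2 difference of the list was -0.03, or 0.02 without vehicle replicate 3. With all libraries and no covariate the lower gene was the prostaglandin E2 receptor Ptger1 (-0.94, unadjusted p = 0.0427 in edgeR). It was at 12.6 and 14.5 CPM in vehicle replicates 4 and 2 and at most 6.02 CPM elsewhere. The lipoxygenase Alox5 differed by -0.41, the leukotriene receptor Cysltr1 by 0.48, the aryl hydrocarbon receptor Ahr by -0.20 and the FPR2 ligand Anxa1 by -0.15. Each had an unadjusted p over 0.05 in the edgeR fit of all libraries without the covariate. Without vehicle replicate 3 Ahr differed by -0.26 (unadjusted p = 0.0238 in edgeR), and with the clock covariate by -0.31 (unadjusted p = 0.0103 in edgeR). Fpr2, Alox15 and Ptgs2 were not analysed here.

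Egr1, the early growth response factor named in the title of the series, was at 1.14, 3.82 and 6.76 CPM with vehicle and 1.38, 3.16 and 6.47 CPM with LXA4. The groups covered the same range, and the log2 difference was -0.04 with a 95% interval of -0.63 to 0.55. Its corepressors Nab1 and Nab2 differed by 0.06 and 0.04. Of 27 genes often described as EGR1 targets, 1 was lower at an unadjusted p under 0.05, the growth factor Pdgfa (-0.44). It rested on vehicle replicate 2 at 22.5 CPM, without which the log2 difference was -0.19. Among 26 immediate early genes, Klf6 (0.26), the ERK phosphatase Dusp6 (0.40) and the stress factor Atf3 (0.63) were higher at that threshold and 0 lower, against 1.77% and 4.38% of all genes. Without vehicle replicate 3 only Klf6 was.

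In the TGF-beta and BMP list, 3 of 30 members were lower at an unadjusted p under 0.05 and 0 higher (4.38% and 1.77% of all genes), and 5 were lower without vehicle replicate 3. Smad3, the receptor-activated transducer of TGF-beta, was at 129, 132 and 147 CPM with vehicle and 99.3, 116 and 126 CPM with LXA4, without overlap. Its log2 difference was -0.24 (SE 0.09, unadjusted p = 0.0165, adjusted p = 0.807 in edgeR). In the same list 1 other member was higher without overlap. Across all genes, 0.254% were lower and 0.191% higher without overlap. The ligand Tgfb2 differed by -0.44 and the inhibitory Smad6 by -0.49, the latter with vehicle replicates 2, 3 and 4 at 44.9 to 51.8 CPM. Of 41 matrix genes, the laminin chains Lama5 (-0.24) and Lamb3 (-0.51) were lower and 0 higher at that threshold, a share near the 4.38% of all genes. The list median was 0.02, and without vehicle replicate 3 it was 0.12, with 2 lower and 1 higher. Hsd11b1, which regenerates active glucocorticoid, overlaps Lamb3 in the annotation and lies on the opposite strand. It was at 40.8 to 60.1 CPM and 48.4 to 80.3 CPM, a log2 difference of 0.39 (unadjusted p = 0.0033, adjusted p = 0.770 in edgeR). The haem-degrading enzyme Hmox1 (0.46) was higher and the epoxide hydrolase Ephx1 (-0.52) lower in the NRF2 list.

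Markers of other kidney regions varied within both groups. The 15 measured genes of urothelium and inner medulla had a median log2 difference of -1.15, with 13 lower and 2 of them at an unadjusted p under 0.05, against 4.38% of all genes. With the clock covariate the median was -1.52 and 11 were lower at that threshold. The mean log2 level of the list was 2.31 to 4.06 in vehicle replicates 1 to 4 and 2.19 and 2.78 in LXA4 replicates 5 and 2, and at most 0.89 in the other 6 libraries. Their summed level was 360 to 718 CPM with vehicle and 375 to 486 CPM with LXA4. Upk3b, an uroplakin, was at 6.88 CPM in vehicle replicate 2, at most 1.77 CPM in the other 5 vehicle libraries and at most 1.30 CPM with LXA4. Without vehicle replicate 2 its log2 difference was -1.13 (unadjusted p = 0.221 in edgeR), and the median of the list was -0.59. The osmolyte carrier Slc6a12 (-1.71) was highest in vehicle replicates 4 and 2. Upk1b and Upk3a were at 0 in at least 1 library of each group. In bulk tissue, fewer cells of a type and less RNA per cell cannot be told apart.

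In the collecting duct list 16 of 20 genes were lower, 3 at an unadjusted p under 0.05, and 1 was higher at that threshold (4.38% and 1.77% of all genes). Without vehicle replicate 3 these calls were 1 lower and 0 higher, and with the clock covariate 6 lower and 0 higher. Aqp2, the vasopressin-regulated water channel, was at 144 and 133 CPM in vehicle replicates 2 and 4 and at 41.9 to 76.1 CPM with LXA4. Its log2 difference was -0.70 (unadjusted p = 0.0424 in edgeR), and -0.49 (unadjusted p = 0.157 in edgeR) without vehicle replicate 2. Aqp3 (-0.45) and Krt18 (-0.65) were lower, and Foxi1, the master regulator of intercalated cells, was higher (0.46). Von Willebrand factor (Vwf, -0.97) was also highest in vehicle replicates 2 and 4, and the chloride channel subunit Bsnd (-0.36) in replicates 2, 4 and 3. Krt19 (-1.80) and Cldn10 of the thick limb (0.31) reached an unadjusted p under 0.05 as well. What part these tissue markers have in the other differences was not tested. Of 32 proximal tubule genes 27 were higher, 0 of them at an unadjusted p under 0.05, with a median of 0.12, or 0.037 without vehicle replicate 4. No member of the myeloid, lymphoid, interferon or ribosomal protein lists had an unadjusted p under 0.05, nor did any in the cell cycle list.

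The nondiabetic difference was tested against that of LXA4 in diabetic mice, which uses other libraries. Of 15726 genes, 39 (0.248%) differed between the states at an adjusted p under 0.05 in edgeR. One diabetic LXA4 library had 56.9% of its counts in structural RNA genes, and without it and vehicle replicate 3 the count was 129 (0.820%). Among the genes named here, 9 of the 39 appear. Per2 differed by -0.42 in nondiabetic and 1.12 in diabetic mice, a gap of -1.54 (95% interval -2.26 to -0.82, adjusted p = 0.0485 in edgeR). Lamb3 differed by -0.51 and 0.94, a gap of -1.45 (adjusted p = 0.0191 in edgeR). The remaining 7 were Kdm4b (gap -0.56), Syne3 (-0.91), Lama5 (-0.46), Gm9754 (-1.56), A930033H14Rik (-1.50), Stra6l (1.22) and Sumo3 (0.58). All 9 kept an adjusted p under 0.05 without the 2 libraries rich in structural RNA. For Arntl, Npas2 and Dbp the gaps were 0.84, 1.56 and -1.69, with adjusted p of 0.502, 0.268 and 0.156 in edgeR. Egr1 had a gap of 1.39 with an adjusted p of 0.121 in edgeR. The diabetic libraries span the wide range of Arntl to Dbp ratios given above, and the part of clock phase in these gaps was not tested.

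Benzo-LXA4 was given at another dose and shares the vehicle libraries, so its values are set beside those of LXA4 without a comparison. Against vehicle in nondiabetic mice, 0 genes (0%) had an adjusted p under 0.05 in edgeR, and 452 (2.87%) an unadjusted p under 0.05. For LXA4 and benzo-LXA4 in turn, the log2 difference from vehicle was 1.13 and 0.15 for Arntl, 1.80 and 0.36 for Npas2, and -1.19 and -0.28 for Dbp. It was -0.56 and -0.13 for Cry2. Adra2b stood at 0.32 and 0.10, Kdm4b at -0.32 and -0.14, and Hsd11b1 at 0.39 and 0.39.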

How the data were processed

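The 36 libraries (6 groups of 6) came from kidney cortex RNA after removal of ribosomal RNA with a strand-keeping kit, per the labels' protocols. The authors deposited whole-number counts per gene in 1 table of 15730 genes, the rarest with 370 counts in all. Per the submitters' processing notes the tools were bcl2fastq 2.17.1.14, STAR and featureCounts, and the build GRCm38; further versions, the annotation and the strand setting of the counting were not given in the sources used here. Each column was mapped to a sample through its code for state, treatment and replicate. No 2 libraries held identical counts.

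Testing used edgeR 4.0.16 in R 4.3.3 (quasi-likelihood), with TMM factors and its low-count filter, which kept 15726 genes. All 36 libraries were fitted with 6 group means, and Benjamini-Hochberg adjusted p-values cover all genes tested, with a threshold of 0.05. Log2 CPM used a prior count of 0.5. Depth enters through the count model and counts were not thinned. Checks were run with DESeq2 1.42.0, limma 3.58.1 voom, other scaling and filters, each library left out, a replicate block and a clock covariate. Structural RNA comprised 31 genes. The steps were tested on simulated data. Coordinates are GENCODE M21 (GRCm38), counted from 1; promoter windows are RefSeq. Named genes are Apoe, the clock lists, Egr1 and lipoxin genes, the 12 lowest p in each direction and up to 4 members of each of the other lists. The members and the 37 gene lists were chosen with earlier results of these data known. Some genes that this rule names are not reported here.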

Additional observations from a re-analysis of the deposited data

Results flagged for a closer look

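In 22 of 182 checks of 6 libraries a single library lay far from the rest of its group, its gap to the next library being large for the whole range of the 6 (Dixon's 95% critical value); chance gives about 1 in 20. Vehicle replicate 3 was the highest for the share of structural RNA (17.7%) and for Dbp (109 CPM), Tef (383 CPM), Cirbp (26.4 CPM), Syne3 (42.0 CPM) and Ppan (7.32 CPM), and the lowest for Hlf (109 CPM), Clock (55.5 CPM) and Ppm1h (254 CPM). Vehicle replicate 2 was the highest for Upk3b (6.88 CPM), Megf11 (16.3 CPM), Ucp1 (1.99 CPM) and Cidea (1.5 CPM). Vehicle replicate 4 was the lowest for Nr1d1 (31.0 CPM), and vehicle replicate 5 the highest for Nt5e (137 CPM) and Gm26704 (4.37 CPM).

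With LXA4, replicate 3 was the highest for structural RNA (6.81%), replicate 2 for Klf6 (39.9 CPM) and Upk3b (1.30 CPM), and replicate 5 for Klf13 (90.6 CPM). Replicate 5 was the lowest for Lama5 (115 CPM) and replicate 1 for Nab1 (41.8 CPM).

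For 9 named genes the LXA4 difference in nondiabetic mice was itself different from that in diabetic mice at an adjusted p under 0.05 in edgeR. The nondiabetic minus the diabetic log2 difference was -1.54 for Per2, -0.46 for Lama5, -1.45 for Lamb3 and -0.56 for Kdm4b. It was -0.91 for Syne3, -1.56 for Gm9754, -1.50 for A930033H14Rik, 1.22 for Stra6l and 0.58 for Sumo3.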

How the results depend on the processing

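The count at an adjusted p under 0.05 was 0 in edgeR under every other scaling, filter, choice of libraries, block or covariate run, and 3 with DESeq2 and with voom. The count at an unadjusted p under 0.05 was 967, ran from 597 (without vehicle replicate 4) to 1270 (without vehicle replicate 5) as libraries were left out, and was 635 without LXA4 replicate 6. It was 620 with a 5 CPM filter, 1731 without both libraries rich in structural RNA, and 1732 with only the 2 groups and without vehicle replicate 3, an alternative chosen after seeing the data. The gaps between nondiabetic and diabetic mice numbered 39, and 129 without those 2 libraries, also chosen after seeing the data. The cause was not tested.

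With the clock covariate the medians of the E-box and ARNTL arms were 0.0036 and -0.018; the covariate is the difference of the arms' mean levels. Single genes were at 0.13 for Nr1d1, 0.035 for Hlf, 0.029 for Ciart, 0.55 for Bhlhe41, 0.15 for Usp2 and -0.018 for Arntl, and the cause was not tested. The mean of the ARNTL arm against that of the E-box arm differed by 0.91 between groups, against 2.54 for Arntl and Dbp alone. Of 88 genes named, 79 kept their direction in each of the 25 alternatives that tested them. Many were named for a low p in this same comparison, and the alternatives refit the same libraries. A kept direction is therefore not independent support. Egr1 was 0.018 with the covariate and 0.018 with the block, and ran from -0.29 to 0.24 over libraries left out. Over the same, Bhlhe41 ran from -0.14 to 0.095 (0.00098 with the block) and Nab2 from -0.047 to 0.19. Anxa1 was 0.047 in voom.

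Replicate numbers did not pair the libraries: correlations of same-numbered deviations ran from -0.21 to 0.49, and only 2 and 6 correlated best with their own number. The replicate block gave 0 genes at an adjusted and 850 at an unadjusted p under 0.05, or 1036 with only the 2 groups.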

Other observations

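Genes of brown fat were high in a few libraries. Ucp1, the uncoupling protein of brown fat, was at 5.82 and 11.4 CPM in LXA4 replicates 2 and 5, at 1.99 CPM in vehicle replicate 2 and at most 0.27 CPM in the other 9 libraries. Cidea of the lipid droplet had the same order (3.26, 5.96 and 1.5 CPM). The 13 adipose genes had a median log2 difference of 0.57, with 0 at an unadjusted p under 0.05. The median was 2.19 without vehicle replicate 2 and 0.24 without LXA4 replicate 5. The list summed to 652 to 968 CPM with vehicle and 733 to 1010 CPM with LXA4. In 7 of 8 erythroid genes the LXA4 group was higher, with a median of 0.34 (0.22 without vehicle replicate 4) and 0 at that threshold. Male-biased genes of the proximal tubule were higher in 13 of 14, with a median of 0.25 and again 0 at that threshold. Of the mitochondrial mRNAs 7 of 7 were higher with a median of 0.26, and the median was 0.08 without vehicle replicate 3.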
